A study of Homo sapiens with 17 samples.

Results

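The later and the earlier response to TRAIL were set against each other in MDA-MB-231 cells: RNA after 24 h of TRAIL was compared with RNA after 3 h, across all genes. The comparison was between 6 of the 17 libraries of the study, the 3 labelled 3 h and the 3 labelled 24 h. The spread was estimated over all 17, and the libraries were assigned by their time labels alone. MDA-MB-231 is an established line grown from a human breast cancer of the triple-negative kind, which lacks oestrogen and progesterone receptors and HER2 amplification, and the labels call it mesenchymal and basal B. Every library, at 0 h as well, came from this line and carries the same label of TRAIL treatment at 45 nM, a dose the submitters describe as below the optimum, chosen to measure living cells. The study sampled 0, 1, 3, 6, 12 and 24 h. No library analysed here was left without TRAIL to a later time, so hours with TRAIL and hours in culture cannot be told apart. The labels number the replicates but do not say that they were separate cultures, so p-values measure only the spread between these libraries, which may be technical.

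TRAIL is a ligand of the TNF family that binds death receptors on the cell surface and can start apoptosis through caspase-8. The same receptors can also switch on NF-κB, a family of dimeric transcription factors that are held in the cytoplasm by inhibitors of the IκB type until a kinase complex marks these for destruction. NF-κB then drives genes of cytokines, chemokines and survival factors together with genes of its own inhibitors, so that its early targets often rise and fall again.

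Total counts were 13731520 to 14520482 at 3 h and 14182576 to 16513524 at 24 h. The pair of times was picked with an earlier result known, namely that these times lie farthest apart in a principal component analysis of all libraries: the first component was -44.6 to -24.8 at 3 h and 24.0 to 38.2 at 24 h. The size of the overall difference is therefore a description. The libraries of the 2 times also stood apart in 2 properties that are not those of single genes. Mitochondrial genes took 7.99% to 8.97% of the counts at 3 h and 3.66% to 4.14% at 24 h. Levels are in CPM, a gene's count scaled to a library total that is the same for all libraries after TMM scaling. Taken against the average library, log2 CPM changed with each doubling of transcript length by -0.156 to -0.0664 at 3 h and 0.0186 to 0.159 at 24 h. Short transcripts were thus measured lower and long ones higher at 24 h, and results with this trend and that on GC content removed are given beside the main ones for the groups where they differ most. Replicates 2 and 3 at 24 h were closer to each other (chi-square of 1.68 per gene, where 1 is sampling noise) than the other pairs (3.86 to 12), and were kept as separate libraries.

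A gene is called when its adjusted p-value is below 0.05 in edgeR's quasi-likelihood test over 15365 genes with Benjamini-Hochberg adjustment, and all adjusted p-values of single genes below come from this test. At 24 h, 4215 genes (27.4%) were higher than at 3 h and 4112 (26.8%) were lower. Together these were 8327 genes (54.2%), and the counts in gene lists below are to be read against the shares of 27.4% and 26.8%. By at least 2-fold, 387 (2.52%) were higher and 699 (4.55%) lower, 1086 in all (7.07%). Most differences were small, since 61.1% of the called genes differed by less than 1.5-fold. Replicate values of the 2 times did not overlap in 9029 genes (58.8%). Removing the length and GC trends gave 3910 higher and 4292 lower genes, and 351 and 546 by at least 2-fold. Of the 8327 calls, 76.0% were made again in the same direction by that fit, and 70 genes were called in the opposite direction.

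**Figure D1:**
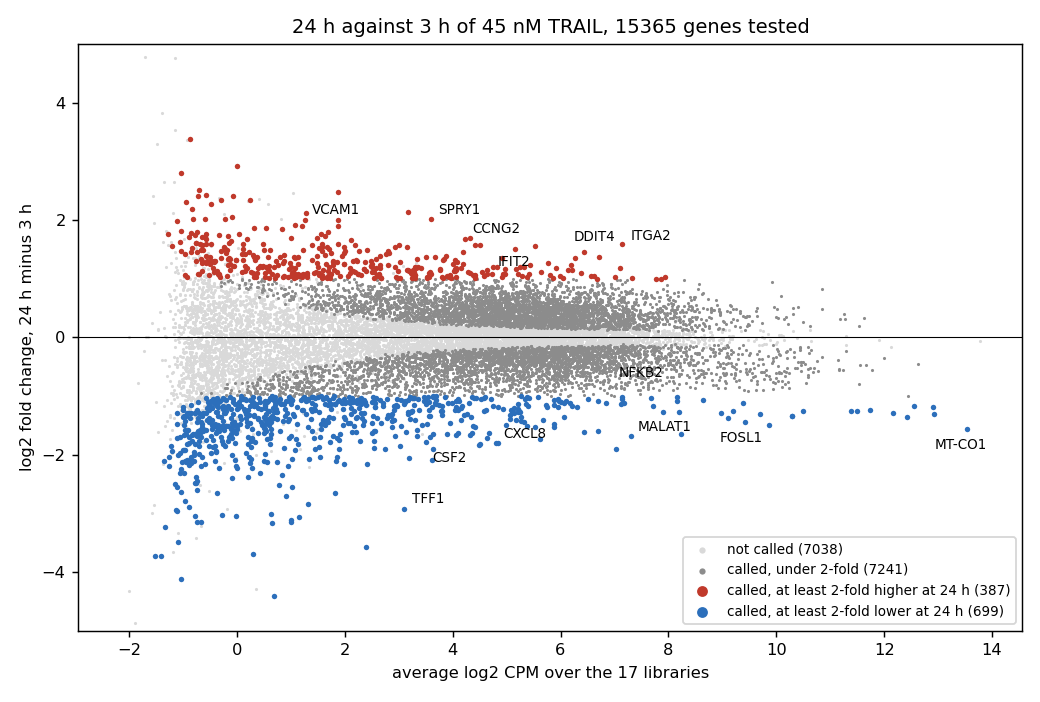
Each point is 1 of the 15365 genes tested, with its average log2 CPM over the 17 libraries on the x axis and its log2 fold change (24 h minus 3 h) on the y axis. Red and blue points are the 387 and 699 genes called at least 2-fold higher and lower, and 32 genes beyond a log2 fold change of 5 in either direction lie outside the plotted range.

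Among genes whose log2 CPM averaged 2 or more and whose replicates did not overlap, the strongest falls included several secreted proteins. TFF1, a secreted trefoil peptide, was at 12.5, 15.1 and 11.2 CPM in the 3 h libraries and at 1.99, 1.49 and 1.601 CPM in the 24 h libraries, 7.58-fold lower (log2 fold change -2.92 ± 0.15, SE; adjusted p = 4.2e-11). Its mean at 0 h was 14.2 CPM, and 3 h did not pass the test against 0 h (adjusted p = 0.437). CSF2, the gene of the growth factor GM-CSF, fell from 57.3, 54.7 and 48.3 CPM to 18.5, 13.1 and 12.9 CPM, and EDN1, the gene of the vasoconstrictor endothelin-1, from 46.2, 45.7 and 43.3 CPM to 14.9, 11.6 and 12.1 CPM. C3, the central complement component, fell 3.503-fold and AMH, a hormone of the TGF-β family, 4.24-fold. PMEPA1, a TGF-β-induced inhibitor of SMAD signalling, went from 205, 203 and 197 CPM to 57.3, 51.5 and 53.4 CPM (log2 fold change -1.90 ± 0.054, SE; adjusted p = 3.3e-15).

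Other genes among the 15 strongest falls have counts that were divided between genes in 15 or more of the 17 libraries, so that their values are uncertain. These are AC011603.2, AP003392.3, AL671710.1, RCC2-AS1, NPIPB4, a member of a family of near-identical copies on chromosome 16, and SULT1A3, whose copy SULT1A4 is nearly identical. AC011603.2, an antisense RNA, stood at 199, 216 and 134 CPM at 3 h and 0.468, 1.92 and 0.2002 CPM at 24 h, but also varied at 0 h (44.6 ± 31.2 CPM, SD, n = 3). It is not called by limma-voom (adjusted p = 0.0653), nor is SULT1A3 when only the 6 libraries are fitted (adjusted p = 0.0538). The remaining genes of the 15 are KRTAP2-3, a keratin-associated protein, FER1L4, a transcribed pseudogene, and CXCL8, described below.

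Among the strongest rises, SPRY1, an inhibitor of receptor tyrosine kinase signalling to ERK, went from 4.52, 4.04 and 5.52 CPM at 3 h to 18.3, 20.2 and 18.5 CPM at 24 h, 4.04-fold higher (log2 fold change 2.01 ± 0.11, SE; adjusted p = 6.2e-11). At 0 h it was at 15.04 ± 1.02 CPM (SD, n = 3), so the 3 h libraries were low against both other times. CCNG2, an atypical cyclin linked to cell cycle arrest, was 3.203-fold higher, with 8.602, 5.36 and 8.39 CPM at 3 h and 21.8, 24.97 and 25.2 CPM at 24 h. ITGA2, the α2 chain of a collagen-binding integrin, was at 68, 59.1 and 82.5 CPM and then at 167, 242 and 222 CPM. The guidance receptor ROBO1 (3.17-fold), the ETS factor ETV1 (2.86-fold), the TGF-β co-receptor TGFBR3 (2.99-fold), the NADPH oxidase NOX5 (2.89-fold) and TMCC3 (3.24-fold) were also among the 15. So were PPFIBP2 (2.995-fold), JADE2 (2.93-fold), SHROOM2 (2.82-fold), the kinase scaffold KSR1 (2.905-fold) and AL669918.1 (4.41-fold), of which KSR1 and AL669918.1 have counts divided between genes in 15 or more libraries. CCNG2, ITGA2, ROBO1, ETV1, TGFBR3, NOX5, TMCC3, JADE2, SHROOM2 and KSR1 lie in the longest of 5 equal bins of transcript length (5411 bases or more). In that bin, 50.8% of all genes were called higher. SPRY1, PPFIBP2, AL669918.1, PFKFB4 and SLC2A3, which complete the 15, are shorter. The values given here keep the length trend.

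Of the 5 NF-κB subunit genes, NFKB2 and RELB were lower at 24 h. NFKB2, which encodes p100 and its processed form p52, was at 161, 178 and 148 CPM at 3 h and at 124, 124 and 119.6 CPM at 24 h, with 80.3 ± 2.21 CPM at 0 h (SD, n = 3). All 24 h libraries lay below all 3 h libraries and above the mean at 0 h. The log2 fold change was -0.40 ± 0.066 (SE; adjusted p = 5.0e-05), and for NFKB2 taken by itself an exact permutation test (two-sided) gave p = 0.1, the smallest that 3 against 3 allow. RELB, the partner of p52, behaved alike, at 44.9, 46.3 and 45.7 CPM and then 36.8, 32.2 and 32.2 CPM (adjusted p = 1.7e-04) against 19.9 CPM at 0 h. NFKB1, the gene of p105 and p50, did not pass the test, with 53.5, 55.1 and 62.5 CPM at 3 h and 53.4, 58.5 and 59.5 CPM at 24 h (adjusted p = 0.989). Among the 5 subunit genes, 0 were called higher and 2 lower (3 with the trends removed), and their median log2 fold change was -0.11 beside -0.0042 over all genes tested. Scaling by library size alone turns this median to 0.04. It was 0.02 when the 3 h replicate 3 or the 24 h replicate 1 was left out, and -0.29 to -0.19 when any other was.

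Of 23 inhibitors and regulators of NF-κB tested, 8 were lower at 24 h and 5 higher, beside the 26.8% and 27.4% of all genes, and 5 became 3 without the 3 h replicate 2 or the 24 h replicate 3 and with the trends removed. The median of -0.13 turns to 0.01 with library size alone and is -0.08 without replicate 2 of either time. TNFAIP3, which encodes the ubiquitin-editing enzyme A20, fell from 26.8, 25.1 and 25.7 CPM to 13.4, 14.1 and 14.1 CPM (log2 fold change -0.90 ± 0.093, SE; adjusted p = 3.2e-07). NFKBIA, the gene of IκBα, fell from 119.5, 115 and 113 CPM to 80.2, 76.7 and 72.3 CPM, and NFKBIE, the gene of IκBε, from 111, 122 and 112 CPM to 71.8, 71.3 and 69.3 CPM. These 3 genes stayed above their levels at 0 h, which were 8.71, 44.3 and 46.98 CPM. BIRC3, the gene of the ubiquitin ligase cIAP2, did not pass the test between the 2 times: it was at 198, 179 and 217 CPM and 161, 189 and 177 CPM (adjusted p = 0.0968), against 42.5 ± 3.505 CPM at 0 h. BIRC3 is called lower with the trends removed (log2 fold change -0.47, adjusted p = 3.7e-08) and without the 3 h replicate 2 (adjusted p = 0.0341). TRAF1, a signalling adaptor, also did not pass it, with 47.2, 48.2 and 48.04 CPM at 3 h, 49.3, 53.4 and 48.3 CPM at 24 h and 16.6 CPM at 0 h (adjusted p = 0.390 for 24 h against 3 h, and 0.0172 for a rise with library size alone). IKBKE, a kinase related to the IκB kinases, rose from 14.98, 13.4 and 14.4 CPM to 26.4, 26.8 and 28.96 CPM, and TNIP1, a partner of A20, from 165, 168 and 161 CPM to 226, 224 and 225 CPM.

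**Figure D2:**
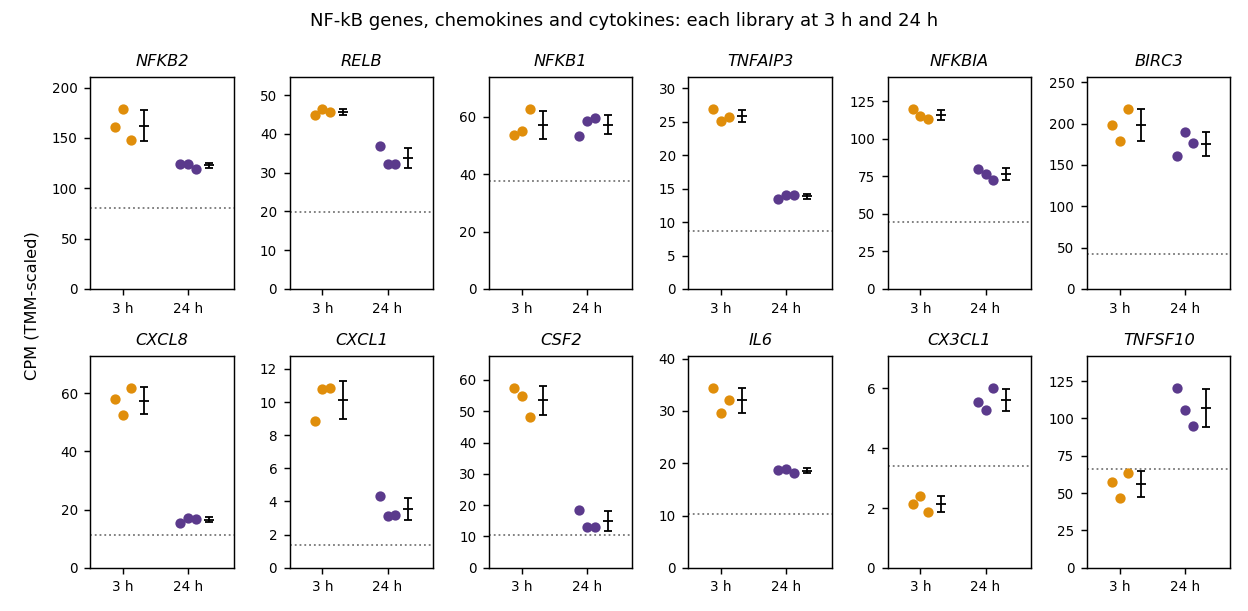
Each panel gives 1 gene in CPM, with the 3 libraries at 3 h in orange and the 3 at 24 h in purple, the mean and SD as a bar beside them and the mean at 0 h as a dotted line. CXCL8, CXCL1 and CSF2 were far lower at 24 h, BIRC3 and NFKB1 overlapped, and CX3CL1 and TNFSF10 were higher at 24 h.

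The chemokines that attract neutrophils through CXCR1 and CXCR2 fell together. CXCL8, the gene of interleukin-8, was at 57.9, 52.6 and 61.7 CPM at 3 h and at 15.5, 17.1 and 16.8 CPM at 24 h, 3.49-fold lower (log2 fold change -1.80 ± 0.11, SE; adjusted p = 3.2e-10). CXCL1 went from 8.82, 10.8 and 10.8 CPM to 4.33, 3.099 and 3.203 CPM, CXCL2 from 15.6, 10.02 and 12.05 CPM to 4.39, 4.52 and 4.14 CPM, and CXCL3 from 5.19, 4.89 and 3.87 CPM to 1.46, 1.49 and 1.33 CPM. In none of the 4 genes did the times overlap, as in 58.8% of all genes. Against 0 h, CXCL2 and CXCL3 at 24 h did not pass the test (adjusted p = 0.543 and 0.794), while CXCL1 and CXCL8 were still higher than at 0 h (log2 fold change 1.39 and 0.54, adjusted p = 7.6e-05 and 0.00277). A pair of chemokines for lymphocytes and monocytes moved the other way. CX3CL1, the membrane-bound chemokine fractalkine, rose from 2.15, 2.41 and 1.86 CPM to 5.56, 5.27 and 6.005 CPM, and CXCL11, a ligand of CXCR3, from 0.593, 0.621 and 0.574 CPM to 1.93, 1.86 and 1.601 CPM. Of 11 chemokines tested, 4 were lower and 2 higher, beside 26.8% and 27.4% of all genes. Their median of -0.09 turns to 0.04 with library size alone, is -0.20 with the trends removed, and with 1 library left out ran from -0.55 (without the 24 h replicate 1) to -0.06 (without the 3 h replicate 1), with -0.23 and -0.16 when replicates 2 and 3 at 3 h were left out.

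The promoters of CXCL1, CXCL2 and CXCL3 are shown because these 3 of the 4 falling chemokines share a site, and those of TNFAIP3 and NFKBIA as falling regulators with a match. In RefSeq promoters on GRCh38.p14, the 250 bases before the start were searched on both strands for the κB motif, taken as GGGRNWYYCC. Here R is A or G, W is A or T, Y is C or T and N is any base. This motif was present in 5.82% of the 7525 tested genes that have a single RefSeq start, in 5 of 7 such chemokine genes and in 4 of 12 such NF-κB regulators. Below are the 150 bases before the start on the gene's own strand, 5′ to 3′, with matches to the κB motif in capitals. CXCL1, CXCL2 and CXCL3 lie in 1 cluster on chromosome 4 and carry a match at nearly the same distance from the start. CXCL1 is at chr4:73869243-73869392 (plus strand), CXCL2 at chr4:74099196-74099345 (minus strand), CXCL3 at chr4:74038690-74038839 (minus strand), TNFAIP3 at chr6:137867109-137867258 (plus strand) and NFKBIA at chr14:35404750-35404899 (minus strand).
CXCL1: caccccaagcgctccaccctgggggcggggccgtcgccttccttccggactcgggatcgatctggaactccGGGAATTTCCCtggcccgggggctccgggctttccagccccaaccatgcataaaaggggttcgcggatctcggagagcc
CXCL2: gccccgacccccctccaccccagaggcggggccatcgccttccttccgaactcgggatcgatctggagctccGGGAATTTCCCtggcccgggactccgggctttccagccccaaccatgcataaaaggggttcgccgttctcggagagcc
CXCL3: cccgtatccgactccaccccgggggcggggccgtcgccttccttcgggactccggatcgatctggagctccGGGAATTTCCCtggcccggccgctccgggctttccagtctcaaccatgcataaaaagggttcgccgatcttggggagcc
TNFAIP3: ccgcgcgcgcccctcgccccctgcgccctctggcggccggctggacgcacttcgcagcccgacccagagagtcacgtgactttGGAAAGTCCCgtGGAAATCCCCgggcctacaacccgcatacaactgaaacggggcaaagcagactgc
NFKBIA: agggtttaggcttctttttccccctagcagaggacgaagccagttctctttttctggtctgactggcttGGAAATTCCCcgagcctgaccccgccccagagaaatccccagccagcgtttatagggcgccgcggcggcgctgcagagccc
The match GGGAATTTCC spans positions -79 to -70 in CXCL1 and CXCL3 and -78 to -69 in CXCL2, counted back from the start, and in each it overlaps a match on the other strand that is shifted by 1 base. TNFAIP3 has 2 matches and NFKBIA 1. The other regulators with a match, BIRC3 (2 matches) and TRAF3 (1 match), were not called. CXCL8, the other falling chemokine, has no exact match in its 250 bases, but holds TGGAATTTCC, which differs from the motif in 1 letter. A match did not go with 1 direction: CXCL11, which was higher at 24 h, has 1 as well, and CXCL10, which was not called (adjusted p = 0.0675, and 0.0357 with the trends removed and 0.0264 without the 24 h replicate 2), has 2. Over all genes with a single start, the κB motif was present in 5.94% of those called higher and in 5.7% of those called lower. Among those called at least 2-fold higher and lower, it was present in 12.9% and 8.33%. The matches are of letters and not measured binding.

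Of 22 cytokines tested, 10 were lower and 4 higher at 24 h, beside 26.8% and 27.4% of all genes, and 8 were lower with the trends removed. Their median of -0.34 is -0.23 with the trends removed, -0.19 with library size alone and -0.18 without the 3 h replicate 1. LIF, a cytokine of the interleukin-6 family, fell from 103, 108 and 93.9 CPM to 47.2, 47.5 and 46.97 CPM, with 51.8 CPM at 0 h (adjusted p = 0.133 for 24 h against 0 h). IL6 fell from 34.3, 29.6 and 32.2 CPM to 18.7, 18.96 and 18.1 CPM and stayed above its level at 0 h of 10.35 CPM (log2 fold change 0.84 for 24 h against 0 h, adjusted p = 1.5e-05). IL11, another member of that family, fell from 43.1, 42.2 and 40.9 CPM to 33.8, 33.3 and 33.03 CPM, with 15.1 CPM at 0 h. TNF itself was scarcely detected: it was at 0.667, 0.699 and 0.574 CPM at 3 h and at 0.117, 0 and 0 CPM at 24 h, and no fold is given since the 24 h libraries are at or below the floor of 3 counts. Rising cytokines included CSF1, the growth factor of macrophages, from 200.01, 198 and 187 CPM to 329, 343 and 328 CPM (log2 fold change 0.77 ± 0.054, SE; adjusted p = 2.0e-09). TNFSF10, the gene of TRAIL, rose from 57.6, 46.6 and 63.5 CPM to 120.2, 106 and 95.1 CPM, 1.91-fold, with 66.3 ± 10.3 CPM at 0 h. TNFSF15, a ligand of the death-domain receptor DR3, rose 2.91-fold, from 2.002, 2.64 and 2.37 CPM to 6.85, 6.75 and 6.81 CPM.

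Among 23 other known NF-κB targets, 10 were lower and 7 higher, and their median of -0.11 turns to 0.04 with library size alone, is -0.25 with the trends removed (13 lower), and is -0.17 or -0.06 if replicate 1 or 2 at 24 h is left out. The stress genes GADD45A, at 173, 176 and 155 CPM and then 59.9, 53.4 and 53.6 CPM, and GADD45B, 2.78-fold lower, fell most among the well-measured ones, and both ended below 0 h (log2 fold change -0.81 and -1.01 for 24 h against 0 h). Of the higher members, ICAM1, an adhesion molecule for leukocytes, rose from 53.9, 55.4 and 57.3 CPM to 90.2, 95.7 and 97.5 CPM, and CD82, a tetraspanin, from 93.4, 87.98 and 103 CPM to 185, 187 and 189 CPM. VCAM1, another adhesion molecule, was low throughout, at 2.002, 1.398 and 0.645 CPM at 3 h and 5.15, 5.52 and 5.605 CPM at 24 h (adjusted p = 3.6e-06).

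Immediate-early transcription factors, which cells switch on within minutes of a stimulus, were nearly all lower at 24 h: 21 of 26 were lower and 3 higher, with a median of -0.70 and the same median with the trends removed. FOSL1, the AP-1 subunit FRA1, was at 1158, 1216 and 1073 CPM at 3 h and at 462, 395 and 409 CPM at 24 h (log2 fold change -1.45 ± 0.083, SE; adjusted p = 1.4e-10), below its 585 CPM at 0 h. JUNB, another AP-1 subunit, fell from 102, 106 and 89.7 CPM to 38.1, 39.6 and 34.7 CPM, the zinc finger factor EGR1 from 49.5, 39.3 and 34.8 CPM to 20.7, 15.2 and 15.2 CPM, and JUN from 248, 271 and 247 CPM to 144, 134 and 133 CPM. The exceptions were FOS, FOSL2 and KLF5, which loses its call when replicate 2 at 3 h is left out (adjusted p = 0.0884). FOS was at 43.97 CPM at 0 h, at 13.6, 11.6 and 11.5 CPM at 3 h and at 23.5, 19.9 and 20.3 CPM at 24 h, so it rose from a low level at 3 h and stayed below the start. FOSL2 rose from 152, 145 and 145 CPM to 192, 228 and 224 CPM. Within the AP-1 family the times thus differed in opposite directions, with JUN, JUNB and FOSL1 higher at 3 h and FOS and FOSL2 higher at 24 h.

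Genes of ERK feedback, inhibitors that ERK itself induces, went both ways, with 8 of 19 higher and 7 lower. The 19 also hold the factor ETV5, which is not such an inhibitor. By at least 2-fold, 3 were higher and 2 lower, and the members named here are all on the higher side. The list's median of 0.11 turns to -0.12 with the trends removed (8 higher and 10 lower) and is 0.07 without the 3 h replicate 3. Beside SPRY1, its relative SPRED1 rose from 36.3, 32.1 and 36.7 CPM to 61.9, 77.4 and 81.4 CPM and the ERK phosphatase DUSP4 from 214, 204 and 222 CPM to 323, 345 and 338 CPM. The ETS factor ETV5 rose from 34.2, 27.6 and 36.1 CPM to 51.6, 54.7 and 51.9 CPM. Genes known as targets of YAP and TAZ, the co-activators of the Hippo pathway, were lower in 11 and higher in 7 of 20 (median -0.22). The lower ones included the matricellular proteins CCN1, from 2073, 2188 and 2076 CPM to 944, 825 and 881 CPM, and CCN2, from 385, 359 and 417 CPM to 189, 181 and 178 CPM, and the nuclear protein ANKRD1, from 592, 578 and 614 CPM to 349, 308 and 329 CPM. The 20 also hold YAP1, which is 1 of the co-activators themselves and is counted among the higher members. It rose from 109, 90.2 and 108 CPM to 172, 214 and 218 CPM. With library size alone, 8 of the 20 were lower and 8 higher (median -0.08). CCN1 and CCN2 ended below their levels at 0 h (log2 fold change -0.61 and -0.77), and ANKRD1 did not pass the test against 0 h (adjusted p = 0.579). The counts of CCN2 were divided between genes in 15 libraries.

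**Figure D3:**
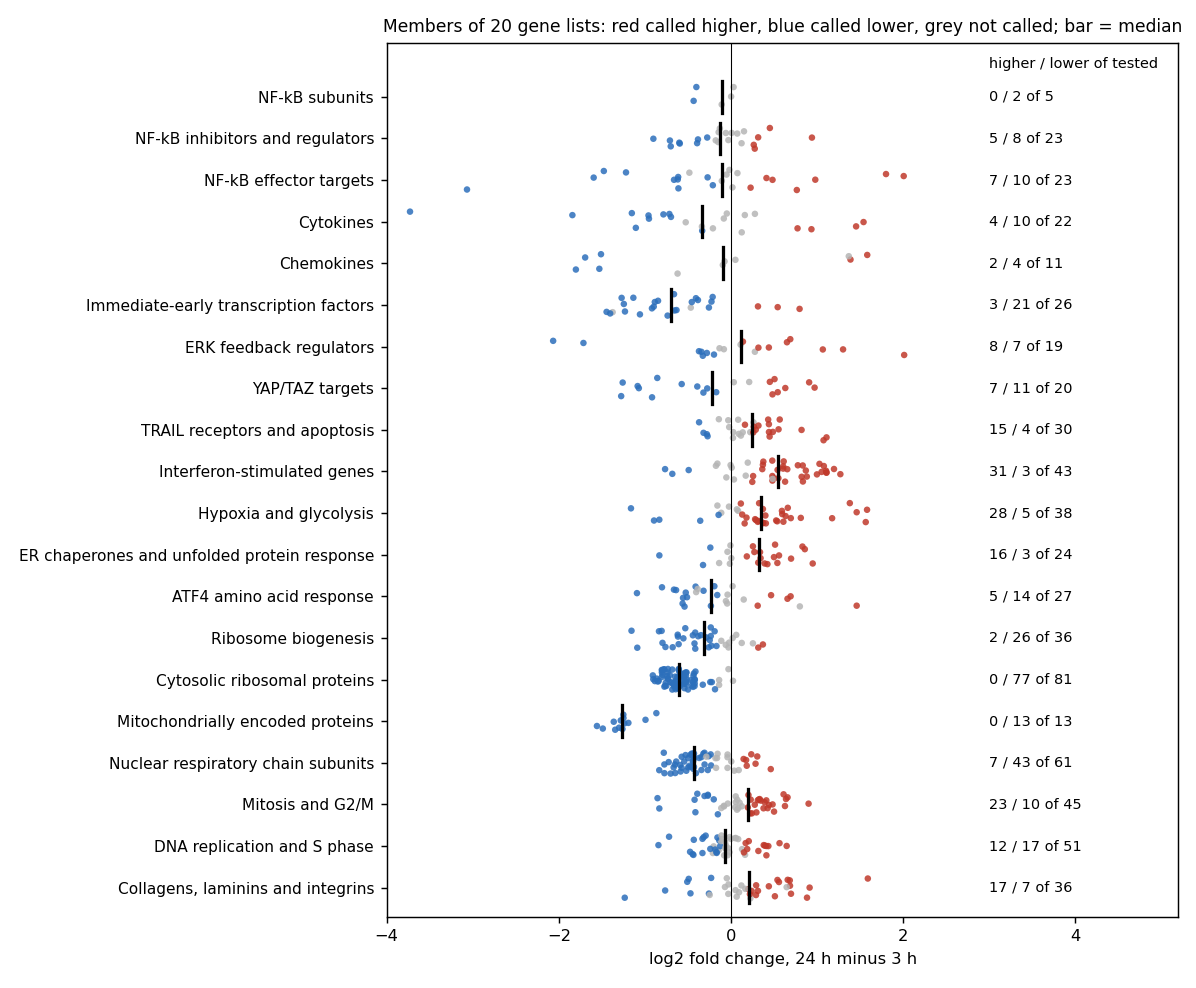
Each point is 1 tested member of 1 of 20 gene lists, at its log2 fold change (24 h minus 3 h), with red for members called higher, blue for called lower and grey for not called, and the black bar at the list's median. Immediate-early factors, ribosome biogenesis and both ribosomal and mitochondrial proteins lie to the left, and interferon-stimulated genes and hypoxia genes to the right.

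In the TRAIL pathway itself, of 30 receptors and apoptosis genes tested, 15 were higher and 4 lower, with a median of 0.24 (0.17, with 12 higher, when the trends were removed). The death receptor TNFRSF10B (DR5) was at 137, 141 and 139 CPM and then at 167, 174 and 168 CPM, 1.22-fold higher (adjusted p = 2.9e-04). The other death receptor, TNFRSF10A (DR4), did not pass the test, at 28.7, 29.4 and 28.8 CPM and 31.1, 33.7 and 30.6 CPM (adjusted p = 0.114, counts divided between genes in 16 libraries, and 0.00437 for a rise with library size alone). TNFRSF10D, a decoy receptor that cannot signal death, rose from 19.7, 20.3 and 21.7 CPM to 36.5, 35.7 and 36.9 CPM, 1.77-fold. APAF1, the scaffold of the apoptosome, rose from 13.9, 11.2 and 15.99 CPM to 24.5, 32.7 and 31.96 CPM (log2 fold change 1.11 ± 0.14, SE; adjusted p = 2.8e-06). CFLAR, the gene of the caspase-8 inhibitor c-FLIP, was at 78.02, 74.2 and 80.2 CPM and 73.7, 75.5 and 78.3 CPM and did not pass the test (adjusted p = 0.661), with counts divided between genes in 17 libraries, but it is called lower with the trends removed (log2 fold change -0.35, adjusted p = 8.2e-05). MCL1, a short-lived survival protein of the BCL-2 family, fell from 383, 369 and 401 CPM to 301, 310.3 and 313 CPM, with 296 CPM at 0 h (adjusted p = 0.393 for 24 h against 0 h). Fewer cells of a kind and less RNA per cell cannot be told apart in such bulk samples.

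Interferon-stimulated genes, which cells switch on in response to interferon, were raised at 24 h. Of 43 tested, 31 were higher and 3 lower than at 3 h, beside 27.4% and 26.8% of all genes, with a median of 0.54. With the length and GC trends removed the counts were 33 and 3 and the median 0.51. Against 0 h, 0 of 43 were higher and 6 lower at 3 h (all genes 9.04% and 8.71%), and 27 were higher and 3 lower at 24 h (all genes 18.0% and 17.1%), comparisons that share libraries with the one described here. IFIT2, an interferon-induced protein that binds RNA, was at 36.3, 34.3 and 39.1 CPM at 3 h and at 87.6, 90.1 and 87.4 CPM at 24 h (log2 fold change 1.27 ± 0.067, SE; adjusted p = 6.0e-11), with 49.9 CPM at 0 h and counts divided between genes in 17 libraries. Its neighbours IFIT1, from 37.9, 38.1 and 35.2 CPM to 85.3, 78.8 and 75.7 CPM, and IFIT3, from 73.6, 69.9 and 79.3 CPM to 159, 155 and 149 CPM, rose with it. DDX58, the RNA sensor RIG-I, was at 34.2, 29.7 and 33.8 CPM and then 63.1, 72.3 and 71.3 CPM, SAMD9, a restriction factor, at 18.5, 16.9 and 19.4 CPM and then 35.7, 45.9 and 44.2 CPM, and the helicase DDX60 at 15.6, 11.2 and 14.98 CPM and then 29.6, 31.2 and 29.6 CPM. In all of these the times did not overlap, as in 58.8% of all genes. The lower members were genes of small membrane proteins, IFI27, from 97, 103 and 90.3 CPM to 67.3, 50.9 and 52.4 CPM, IFITM3, from 323, 350.3 and 272 CPM to 219, 179.6 and 191 CPM, and IFITM2, and the counts of the 2 IFITM genes were divided between genes in 16 libraries. IFITM2 is not called with the trends removed (adjusted p = 0.213).

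The interferon response element, searched as TTTC, any 2 bases and TTTC again, and as its reverse with GAAA, in the same 250 bases, was present in 17 of 25 members with a single RefSeq start (68%) and in 2.5% of the 7525 such genes tested. Among these members it was present in 11 of 18 called higher, in 1 of 1 called lower and in 5 of 6 not called. It is shown in capitals in the 150 bases before the start of IFIT1 at chr10:89392473-89392622 (plus strand), DDX60 at chr4:168318753-168318902 (minus strand) and HERC5, a ubiquitin-like ligase, at chr4:88456969-88457118 (plus strand). These 3 were picked as examples of genes that rose and carry more than 1 match. IFIH1 and OAS3 also rose with more than 1 match, but so many are also found in IFITM3, which fell, and in ISG15, which was not called.
IFIT1: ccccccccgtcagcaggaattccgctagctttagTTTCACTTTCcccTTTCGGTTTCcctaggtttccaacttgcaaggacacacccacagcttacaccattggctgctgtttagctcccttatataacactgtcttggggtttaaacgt
DDX60: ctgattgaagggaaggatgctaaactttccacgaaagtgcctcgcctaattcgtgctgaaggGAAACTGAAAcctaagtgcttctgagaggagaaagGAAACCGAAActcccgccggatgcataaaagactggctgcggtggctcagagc
HERC5: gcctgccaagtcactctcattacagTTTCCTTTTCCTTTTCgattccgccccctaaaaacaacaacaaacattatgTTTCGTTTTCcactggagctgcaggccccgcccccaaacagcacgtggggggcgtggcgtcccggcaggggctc
In IFIT1 the matches TTTCACTTTC and TTTCGGTTTC begin 116 and 103 bases before the start. HERC5 was at 17.9, 19.3 and 22.3 CPM at 3 h and at 36.7, 34.95 and 38.1 CPM at 24 h.

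Genes of glycolysis and of the response to low oxygen formed another group that was higher at 24 h, with 28 of 38 higher and 5 lower and a median of 0.35 (0.30 with the trends removed). The 5 lower members became 3 without replicate 2 of either time or replicate 3 at 24 h. PFKFB4, which makes the activator of phosphofructokinase, was at 10.98, 10.7 and 7.67 CPM at 3 h and at 29.4, 28.1 and 30.2 CPM at 24 h (log2 fold change 1.58 ± 0.11, SE; adjusted p = 1.4e-09; counts divided between genes in 17 libraries). The glucose transporter SLC2A3 rose from 10.98, 11.03 and 11.8 CPM to 30.2, 36.9 and 32.96 CPM, DDIT4, an inhibitor of mTORC1, from 48.9, 46.6 and 39.6 CPM to 123, 121 and 128 CPM, and EGLN3, an oxygen-sensing prolyl hydroxylase, from 6.82, 7.53 and 8.82 CPM to 20.7, 19.3 and 20.4 CPM. At 0 h these genes were at 25.7, 20.04, 77.7 and 16.5 CPM, so that each had its lowest level of the 3 times at 3 h. Against 0 h, 26 of the 38 were lower and 1 higher at 3 h (all genes 8.71% and 9.04%), and 8 were higher and 5 lower at 24 h, near the 18.0% and 17.1% of all genes. Known oxygen-regulated genes also moved the other way: the peptide hormone ADM fell from 35.97, 38.9 and 34.4 CPM to 20.7, 18.3 and 19.7 CPM and the carbonic anhydrase CA9 from 20.4, 21.1 and 18.9 CPM to 12.8, 10.41 and 10.7 CPM. The core ACGTG of the hypoxia response element (reverse CACGT) was present in the 250 bases before the start in 13 of 23 members with a single start (56.5%) and in 24.1% of the 7525 genes. It was present in 7 of 15 called higher, in 3 of 4 called lower and in 3 of 4 not called, and neither PFKFB4 nor EGLN3 has a match.

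**Figure D4:**
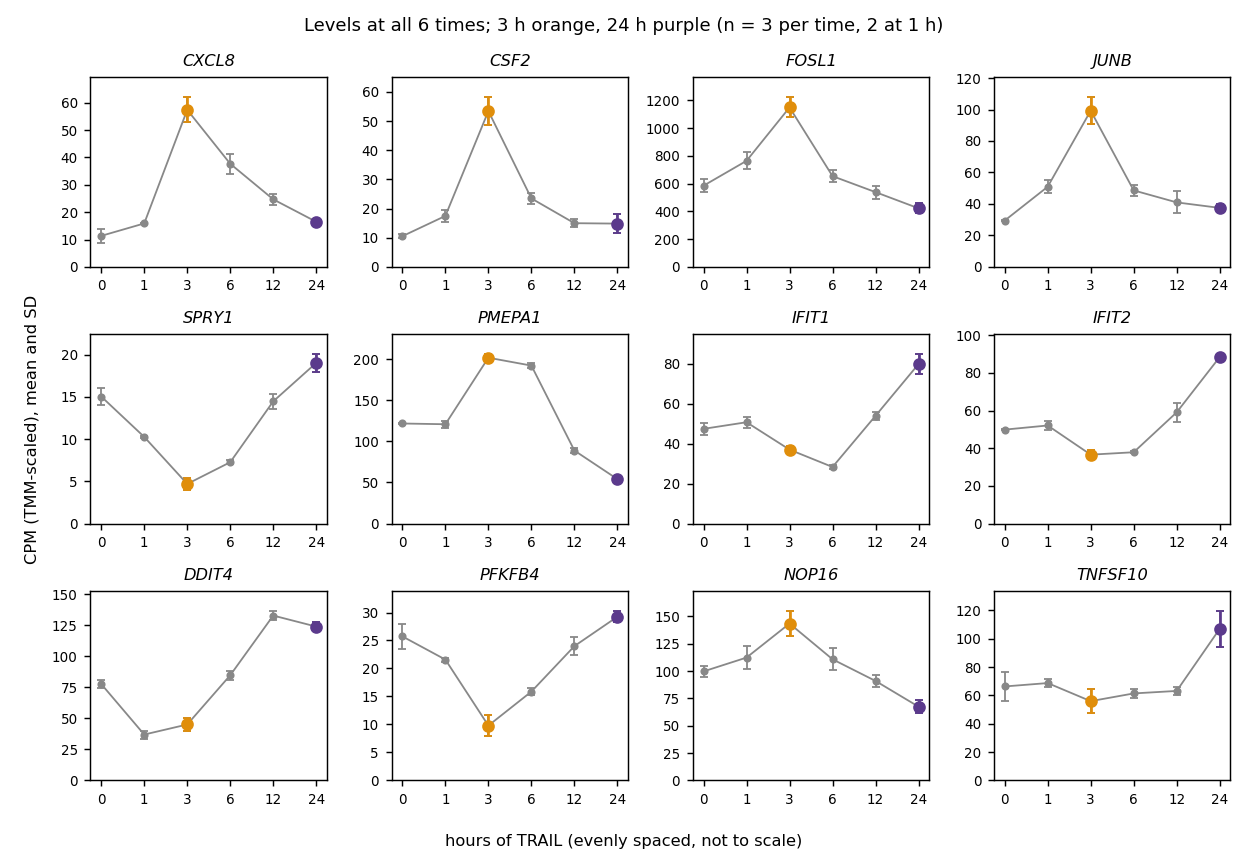
Each panel gives the mean CPM with its SD at the 6 times for 1 gene (3 libraries per time, 2 at 1 h), with 3 h in orange and 24 h in purple and the times evenly spaced. CXCL8, CSF2, FOSL1 and JUNB have their highest mean at 3 h, SPRY1 and PFKFB4 have their lowest mean at 3 h, and IFIT1, IFIT2 and TNFSF10 have their highest mean at 24 h.

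Genes of the endoplasmic reticulum chaperones and the unfolded protein response were higher in 16 and lower in 3 of 24 (median 0.33). The chaperone genes CANX (821, 742 and 914 CPM, then 1227, 1382 and 1411 CPM) and HYOU1 (170.4, 174 and 183 CPM, then 288, 323 and 328 CPM, counts divided between genes in 16 libraries) and the degradation factor SEL1L (44.2, 36.1 and 51.1 CPM, then 70.2, 92.3 and 92.01 CPM) rose. In contrast, genes driven by ATF4, the transcription factor of amino acid shortage, were lower in 14 and higher in 5 of 27 (median -0.23). ATF4 itself fell from 358, 375 and 336 CPM to 253, 220.3 and 214 CPM and the asparagine synthetase ASNS from 95.6, 94.2 and 103 CPM to 71.2, 57.1 and 56.5 CPM, the latter with counts divided between genes in 17 libraries. The amino acid transporter SLC38A2 went against this group, from 164, 149 and 179 CPM to 245, 279.9 and 272 CPM. Sterol synthesis showed a mixed picture with 9 of 25 higher and 4 lower.

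Ribosome biogenesis, the nucleolar assembly of ribosomes, was lower at 24 h: 26 of 36 genes were lower and 2 higher, with a median of -0.32, and 30 were lower and 0 higher with the trends removed (median -0.32). RRS1, an assembly factor of the large subunit, fell from 82.6, 78.9 and 76.3 CPM to 38.6, 34.95 and 33.1 CPM and NOP16 from 137, 157 and 136 CPM to 73.9, 62.4 and 65.9 CPM (log2 fold change -1.09 ± 0.083, SE; adjusted p = 6.5e-09). NOP56, a core protein of the RNA-methylating complex, fell from 461, 512 and 442 CPM to 305, 258 and 271 CPM. The counts of NOP16 and NOP56 were divided between genes in 17 and 16 libraries. MYC, a known driver of these genes, fell from 175, 171 and 171 CPM to 135, 126 and 129 CPM.

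Several groups of short transcripts were lower at 24 h and shrank once length and GC content were allowed for. Of 81 cytosolic ribosomal protein genes, 77 were lower and 0 higher (median -0.61), and 63 were lower and 4 higher with the trends removed (median -0.35). Of 61 nuclear-encoded respiratory chain subunits, 43 were lower and 7 higher (median -0.43), and 30 and 15 with the trends removed (median -0.10). The 7 became 4 without replicate 1 of either time. All 13 mitochondrially encoded protein genes were lower (median -1.26, and -0.90 with the trends removed). MT-CO1, a subunit of cytochrome c oxidase, was at 18551, 18994 and 16078 CPM at 3 h and 6624, 5507 and 6089.6 CPM at 24 h, and at 13316 ± 3638 CPM at 0 h (SD, n = 3). Its counts were divided between genes in 17 libraries. These changes moved with the mitochondrial share and the length slope of the libraries, whose part in them was not tested. For the 13 mitochondrially encoded genes the share is not a separate property, since it is counted from the mitochondrial genes themselves.

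Of 45 genes of mitosis, 23 were higher and 10 lower (median 0.20, and 0.09 with the trends removed), and of 51 genes of DNA replication, 12 were higher and 17 lower, near the 27.4% and 26.8% of all genes (median -0.07). For the replication genes the trends removed gave 10 higher and 22 lower, and library size alone turned the balance to 16 higher and 9 lower (median 0.08). ECT2, which sets up the contractile ring, rose from 87.8, 70.4 and 96.5 CPM to 138, 167 and 172 CPM, while the mitotic ubiquitin enzyme UBE2C fell from 438, 473 and 435 CPM to 277, 234 and 234 CPM and the kinase AURKB from 152, 170.4 and 142 CPM to 92.4, 84.8 and 83.4 CPM. POLE, the leading-strand polymerase, fell from 182, 178 and 150.1 CPM to 90.3, 94.8 and 99.8 CPM. Among 20 genes known as p53 targets, 9 were higher and 5 lower, beside 27.4% and 26.8% of all genes (median 0.22, and 0.07 with the trends removed), with the kinase PLK3 falling most, from 38.3, 40.4 and 30.6 CPM to 12.8, 11.8 and 13.2 CPM.

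Of 36 collagen, laminin and integrin genes tested, 17 were higher and 7 lower (median 0.21), and 14 were higher and 11 lower with the trends removed (median 0.05). Beside ITGA2, the laminin receptor ITGA6 rose from 244, 233 and 300.4 CPM to 442, 525 and 499 CPM. Of 16 matrix proteases and inhibitors tested, 6 were higher and 6 lower, beside 27.4% and 26.8% of all genes. The collagenase MMP1 rose from 41.5, 44.96 and 47.8 CPM to 96.5, 89.98 and 90.7 CPM. Of 16 genes of immune suppression tested, 6 were higher and 4 lower, beside the same shares. CD274, the gene of PD-L1, fell from 58.4, 57.5 and 56.4 CPM to 29.7, 32.3 and 37.2 CPM, with 28.5 CPM at 0 h (adjusted p = 0.0556 for 24 h against 0 h). PTGES, which makes prostaglandin E2, rose from 28.9, 27.3 and 26.2 CPM to 62, 55.6 and 56.4 CPM. Of 16 tested genes that mark or regulate the change from epithelial to mesenchymal cells, 4 were higher and 6 lower, beside 27.4% and 26.8% of all genes. Among them CLDN4, a tight junction protein, rose from 41.97, 43.9 and 42.2 CPM to 97.2, 93.7 and 92.6 CPM, while the keratin KRT18 fell 1.51-fold.

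RNA class and transcript length went with the direction of the calls. In 5 equal bins of transcript length, the share of genes called higher was 5.31% in the shortest and 50.8% in the longest, and the share called lower was 44.8% and 12.1%. Of 12879 protein-coding genes, 4076 were higher and 3359 lower (median 0.05). Of 784 antisense RNAs, 35 were higher and 235 lower (median -0.42, and -0.25 with the trends removed), and of 524 lincRNAs, which are long intergenic noncoding RNAs, 24 were higher and 157 lower (median -0.39, and -0.21 with the trends removed). Pseudogenes were lower in 191 and higher in 56 of 687, and their median of -0.30 is -0.03 with the trends removed. Of the 699 genes lower by at least 2-fold, 47.9% were protein-coding, against 83.8% of all genes tested. The kit marks strand, but the strand setting of the counting is not given in the sources used here, so an antisense RNA and its partner may have exchanged counts.

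**Figure D5:**
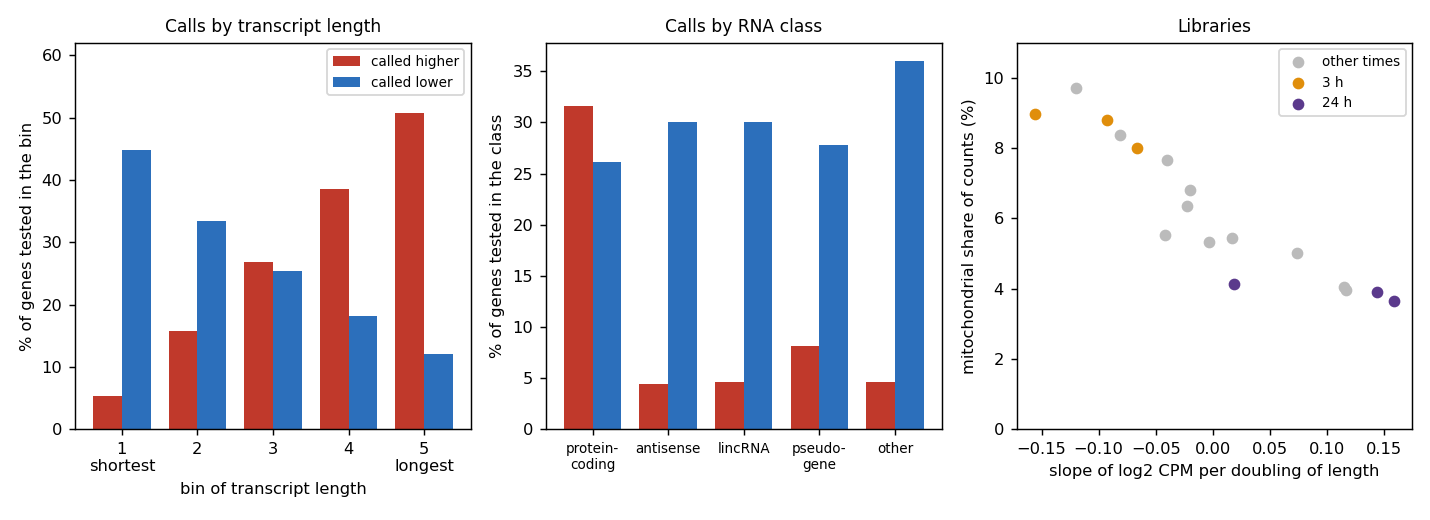
The left and middle panels give the percentage of genes called higher (red) and lower (blue) at 24 h by bin of transcript length (5 bins of equal size) and by RNA class. The right panel gives each of the 17 libraries at its slope of log2 CPM per doubling of transcript length (x axis) and its mitochondrial share of counts in percent (y axis), where the 24 h libraries (purple) lie below and to the right of the 3 h libraries (orange).

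The labelled cell type was checked by its markers. The 10 basal B and mesenchymal markers summed to 8922 to 9103 CPM at 3 h and 8154 to 8473 CPM at 24 h, and the defining luminal markers ESR1, PGR and FOXA1 had at most 2 counts in any of the 6 libraries. SPARC, which is 1 of these 10, was low, with a mean of 0.571 CPM at 3 h and 0.619 CPM at 24 h. Of the 10, 3 were higher and 3 lower. The 10 luminal markers, of which 7 were tested and 3 were lower, summed to 2162 to 2608 CPM at 3 h and 1751 to 1961 CPM at 24 h. Among them the keratin genes KRT8, KRT18 and KRT19 were high, with means of 1060, 845 and 401 CPM at 3 h. Leukocyte markers were nearly absent: 9 of 10 were untested with at most 6 counts, and the list summed to 1.40 to 1.98 CPM over the 6 libraries. Endothelial markers summed to 2.37 to 3.11 CPM at 3 h and 6.27 to 7.32 CPM at 24 h, with KDR and PECAM1 both higher at 24 h, while the other 4 of 6 were untested and had at most 5 counts. The part of these markers in the other differences was not tested. Fibroblast markers summed to 19.1 to 26.03 CPM at 3 h and 19.0 to 20.3 CPM at 24 h, with COL3A1 and DCN at 1 count or fewer.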

How the data were processed

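Stranded poly(A) RNA libraries were sequenced paired-end, per the labels' protocols. Adapters were trimmed with cutadapt 1.18 and reads aligned to hg38 with STAR 2.7.0f, per the submitters' processing notes. The values are gene-level expected counts that the authors deposited as RSEM output for 58870 entries, of which 58597 matched GENCODE 29 by identifier without its version. Since RSEM divides shared reads between genes, 10.8% of values are not whole (tolerance 0.005), and all were rounded. The strand setting of the counting is not given in the sources used here, and 0 columns lacked a sample.

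Counts were fitted with edgeR 4.0.16 (R 4.3.3): TMM scaling, filterByExpr, robust quasi-likelihood with 1 mean per time over all 17 libraries, the contrast 24 h minus 3 h, and Benjamini-Hochberg adjustment over 15365 genes. CPM (counts scaled to the TMM-adjusted library total) were computed and averages of log2 CPM use a prior count of 2. Alternatives used DESeq2 1.42.0, limma 3.58.1, other scalings and filters, left-out libraries, and offsets that remove each library's trends with length and GC content. The model was tested on simulated data. The genes named are NFKB2, the 15 highest and 15 lowest called genes whose log2 CPM averaged 2 or more and whose replicates do not overlap, and in each list up to 5 called members with the largest change plus members named for their role. The comparison and the lists were chosen with earlier results of these data known. Of the genes tested, 10544 had a RefSeq promoter and 7525 had a single start.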

Additional observations from a re-analysis of the deposited data

How the results depend on the processing

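Scaling by library size alone gave 5802 genes higher and 2794 lower, and 629 and 478 by at least 2-fold, because it moved the median log2 fold change of all genes from -0.0042 to 0.14. Fitting only the 6 libraries of the 2 times tested 14245 genes and gave 3832 higher and 3848 lower, and 331 and 604 by at least 2-fold. Leaving out each library in turn gave 3593 to 4211 genes higher and 3544 to 4060 lower, and 316 to 460 and 568 to 799 by at least 2-fold. Averaging replicates 2 and 3 at 24 h and at 6 h gave 3641 higher and 3515 lower, and DESeq2 gave 3949 and 3819, with 92.5% of the calls made again in the same direction. Same-numbered libraries of the 2 times did not deviate together (r = -0.00979, -0.0923 and 0.0464 over genes), so the replicate numbers were not taken as pairs. The fit with a replicate block gave 4205 genes higher and 4087 lower, 387 and 704 by at least 2-fold, and changed no call of a gene named here. The difference of NFKB2 alone was -0.398 on the log2 scale, -0.40 with a prior count of 0.5 and -0.25 with a library-size denominator, each with an exact permutation p = 0.1. None of the 121 genes followed through the alternatives was called in the opposite direction. Of 138 counts and medians of gene lists, scaling by library size alone moved 63, removing the length and GC trends 50, and leaving out 1 library 5 to 14. With the trends removed, 65.2% of the 2-fold calls were made again. TNF and CXCL10 had at most 9 and 23 counts in any of the 6 libraries.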

Other observations

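Several families of noncoding and repeated genes, chosen after their values were seen, stood on the lower side at 24 h. Of 21 tested host genes of small nucleolar RNAs, namely those named SNHG with a number, 15 were lower and 0 higher than at 3 h. Their median log2 fold change was -0.59, beside 26.8% lower and 27.4% higher over all genes. SNHG15 went from 56.1, 63.8 and 51.7 CPM at 3 h to 26.5, 21.7 and 22.5 CPM at 24 h, and SNHG17 from 68.8, 68.7 and 57.5 CPM to 26.1, 23.2 and 22.1 CPM. GAS5, a host gene that is not among the 21, went from 235, 252 and 231 CPM to 145, 129 and 126 CPM. These transcripts carry small nucleolar RNAs in their introns, and 7 of the 21 have counts divided between genes in 15 or more libraries. The nuclear RNAs MALAT1, at 270.2, 238 and 218 CPM and then 67.5, 80.00 and 79.3 CPM, and NEAT1, at 821, 854 and 684 CPM and then 278, 333 and 351 CPM, were also lower (log2 fold change -1.68 and -1.29, adjusted p = 2.5e-05 and 3.2e-05).

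Of 17 genes of the NPIP family, near-identical copies on chromosome 16, 11 were lower and 0 higher, 9 of them by at least 2-fold, and all 17 have counts divided between genes in 15 or more libraries. Of 9 genes of the GOLGA8 and GOLGA6 families, 4 were lower and 0 higher, and all 9 have divided counts. The part of read division in these differences was not tested.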
